A study of Mus musculus with 9 samples.

Results

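The IL-6 family set comprised 10 genes: the cytokines Il6, Lif, Il11 and Clcf1, the receptor chains Osmr, Lifr, Il6st and Il6ra, the transcription factor Stat3 and its feedback inhibitor Socs3. They were found by gene symbol in a deposited count table of 27370 genes, and all 10 were present on 1 row each and passed the filter on low counts. Their polyA RNA was measured by bulk RNA-seq in 9 libraries of sorted mouse fibroblasts, 3 in each of 3 groups. The groups were red pulp fibroblasts (RPF) of the spleen after macrophage depletion by diphtheria toxin, RPF at steady state without toxin, and fibroblastic reticular cells (FRC) of lymph nodes at steady state without toxin. Every mouse was 4 months old and carried Wt1CreERT2, RosatdTomato and CD64DTR. RPF were sorted as tdTomato+ cells, a label that depends on Cre expressed from Wt1, and FRC as tdTomato- cells, both from a CD45- fraction. Diphtheria toxin kills cells that carry the CD64DTR receptor. Toxin-treated mice without that receptor are not among the samples, so an effect of the toxin itself and the loss of CD64+ cells cannot be told apart. Each library pooled 2 mice, and 6 mice gave each group, 12 mice in all. Steady-state FRC and steady-state RPF therefore came from the same 6 untreated mice, and no label tells which libraries share mice. Tissue and sort gate changed together between FRC and RPF.

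Cytokines of the IL-6 family signal through receptor complexes that share gp130, the product of Il6st. IL-6 and IL-11 bind their own receptor chains, of which Il6ra encodes the one for IL-6, and then recruit gp130. LIF and cardiotrophin-like cytokine, the product of Clcf1, use gp130 with the LIF receptor, and Osmr encodes the chain that pairs with gp130 for oncostatin M. The complexes activate JAK kinases and STAT3, and STAT3 induces Socs3, whose product shuts the receptor down. Fibroblasts of many tissues are known both to secrete IL-6 and LIF and to respond to this family.

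The promoter windows of 4 members are shown because they belong to the cytokines and the inhibitor with the widest range of levels here, beside the shared receptor chain. Each runs 5′ to 3′ on the strand of its gene, from 250 bases before to 50 bases after the RefSeq start (build GRCm38.p6), and capitals mark matches to searched motifs.
Il6, chr5:30012864-30013163, plus strand: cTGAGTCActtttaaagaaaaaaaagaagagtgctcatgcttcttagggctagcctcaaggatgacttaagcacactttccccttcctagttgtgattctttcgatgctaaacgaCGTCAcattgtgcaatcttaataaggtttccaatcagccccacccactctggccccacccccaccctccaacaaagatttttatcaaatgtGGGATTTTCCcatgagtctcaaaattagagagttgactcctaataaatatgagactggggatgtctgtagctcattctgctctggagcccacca
Lif, chr11:4257318-4257617, plus strand: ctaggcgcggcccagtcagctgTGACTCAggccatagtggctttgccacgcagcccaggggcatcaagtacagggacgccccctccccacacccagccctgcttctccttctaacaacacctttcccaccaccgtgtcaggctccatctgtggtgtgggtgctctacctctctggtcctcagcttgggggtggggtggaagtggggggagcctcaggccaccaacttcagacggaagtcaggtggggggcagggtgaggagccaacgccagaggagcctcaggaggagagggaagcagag
Socs3, chr11:117969317-117969616, minus strand: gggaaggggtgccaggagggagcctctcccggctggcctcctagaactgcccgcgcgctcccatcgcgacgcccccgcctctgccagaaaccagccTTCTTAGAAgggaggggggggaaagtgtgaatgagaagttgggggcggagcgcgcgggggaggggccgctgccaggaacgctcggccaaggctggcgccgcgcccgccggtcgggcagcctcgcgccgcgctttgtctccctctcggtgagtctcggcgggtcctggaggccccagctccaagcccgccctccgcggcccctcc
Il6st, chr13:112463820-112464119, plus strand: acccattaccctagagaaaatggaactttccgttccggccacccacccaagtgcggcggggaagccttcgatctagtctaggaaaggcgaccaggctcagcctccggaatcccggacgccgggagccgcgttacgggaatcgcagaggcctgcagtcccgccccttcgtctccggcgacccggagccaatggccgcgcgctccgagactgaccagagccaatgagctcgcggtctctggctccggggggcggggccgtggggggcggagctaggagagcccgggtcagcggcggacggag
The motifs searched on both strands were TTCNNNGAA for STAT factors, GGGA and TTCC parted by 2 free bases for NF-kB, TGANTCA for AP-1 and TGACG for the core of the cyclic AMP response element, and no match in these windows overlapped another. The Il6 window held the NF-kB motif (GGGATTTTCC, first base at -44 from the start), the AP-1 motif (TGAGTCA, at -249) and the response element core on the reverse strand (CGTCA, at -135). The Lif window held the AP-1 motif (TGACTCA, at -228), the Socs3 window the STAT motif (TTCTTAGAA, at -154), and the Il6st window none of the 4. Of 32817 RefSeq promoter windows of the same length, 1.47% held the NF-kB motif, 7.81% AP-1, 8.29% STAT and 20.8% the response element core. Windows were given for 9 of the 10 members, 11 in all. Among the others, the AP-1 motif stood in the Osmr window (at 4) and in 1 of the Il11 windows (at -98), and the response element core in the Il6ra window (at -236). A match is a stretch of letters and no evidence that a factor bound there.

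Levels are CPM, counts scaled to library size, with TMM scaling, and group values are mean ± SD over 3 libraries. Library totals ran from 25414645 to 43879806 counts. A gene was called where the edgeR quasi-likelihood test gave a Benjamini-Hochberg adjusted p under 0.05 over 15103 tested genes. Y-linked genes had 1 count in RPF steady replicate 1, 0 in FRC replicate 1 and 2285 to 6101 in the 7 other libraries. The fibroblast genes Pdgfra, at 361 to 505 CPM in depleted RPF, 314 to 408 CPM in steady-state RPF and 597 to 728 CPM in FRC, and Pdgfrb, at 2215 to 2422 CPM in depleted RPF, 910.0 to 959.8 CPM in steady-state RPF and 492 to 559 CPM in FRC, were high throughout, but the 8 fibroblast markers together took 0.521% of counts in depleted RPF, 0.656% in steady-state RPF (exact two-sided permutation p = 0.1) and 4.35% in FRC. Of the 8, Pdgfrb rose and Col1a2, Col3a1 and Dcn fell after depletion, and 7 were lower in steady-state RPF than in FRC. Dcn, a matrix proteoglycan gene, averaged 12.3 CPM in depleted RPF, 30.6 CPM in steady-state RPF and 26900 CPM in FRC, and Lum, its relative, 6.63, 7.94 and 5418 CPM in the same groups. Pdpn, the gene of the stained surface protein gp38, had 1 to 5 counts in depleted RPF and 1 to 10 in steady-state RPF, against 2084 to 2582 in FRC, so this marker was near 0 in the RPF libraries.

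The first comparison, depleted over steady-state RPF, addresses how RPF differ after toxin treatment and macrophage depletion. Of the 10 members, 8 were called: Il6, Lif, Clcf1, Osmr, Socs3 and Stat3 were higher after depletion, and Lifr and Il6st lower. In the same test 21% of all genes were called, 11.1% higher and 9.96% lower. The libraries of both groups did not overlap for the same 8 members, 6 higher and 2 lower, where this held for 44.4% of all genes, 21.4% higher and 23% lower. The median log2 fold change was 0.66 over the members and -0.09 over all tested genes. The cytokine genes other than Il11, with Socs3 and Stat3, were thus higher. Among the receptor genes, Osmr was higher, those of gp130 and the LIF receptor were lower, and Il6ra, like Il11, was not called.

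**Figure D1:**
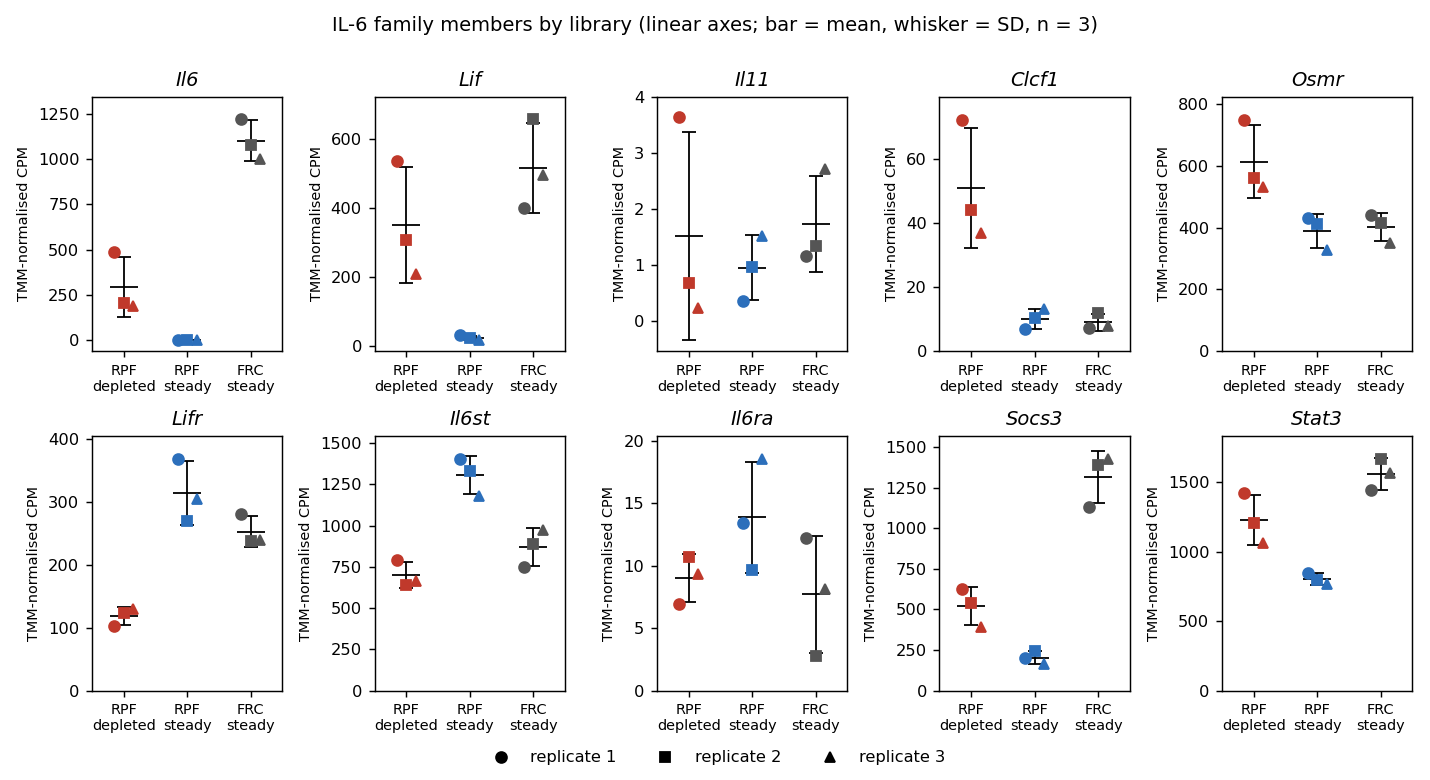
Level of each IL-6 family gene in TMM-scaled CPM (linear y axis, own scale per panel) in RPF depleted, RPF steady and FRC steady libraries; points are libraries, the horizontal bar is the mean and the whiskers the SD of 3 libraries. Il6 and Lif are near 0 in steady-state RPF alone, whereas Lifr is lowest in depleted RPF. Il6st is highest in steady-state RPF, and its depleted and FRC libraries overlap.

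Il6, the founding cytokine of the family (ENSMUSG00000025746, mm10 chromosome 5, 30013114 to 30019981, plus strand), had 487, 209 and 187 CPM in the depleted libraries, 4.19, 1.5 and 3.90 CPM in steady-state RPF and 1222, 1080 and 1002 CPM in FRC. None of the 3 groups overlapped another, and FRC was highest. Behind the low steady-state RPF levels were 197, 76 and 118 reads. After depletion Il6 was 92.5-fold higher than in steady-state RPF (log2 fold change 6.53, SE 0.54, 95% interval 5.31 to 7.76, edgeR adjusted p = 9.27e-05). It still lay 3.74-fold below FRC (log2 fold change -1.90, SE 0.43, edgeR adjusted p = 0.00866). At steady state RPF held 346-fold less Il6 than FRC (log2 fold change -8.44, SE 0.59, edgeR adjusted p = 1.18e-05), and this was the largest difference of any member in any comparison.

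Lif, a cytokine that acts through LIFR and gp130 (chromosome 11, 4257557 to 4272514, plus strand), had 536, 306 and 209 CPM in the depleted libraries, 30.3, 22.4 and 16.9 CPM in steady-state RPF and 398, 656 and 494 CPM in FRC. The depleted and FRC libraries overlapped, and every steady-state RPF library lay below both groups. Lif rose 15.1-fold after depletion (log2 fold change 3.92, SE 0.40, edgeR adjusted p = 0.00023) and was 22.2-fold lower in steady-state RPF than in FRC (edgeR adjusted p = 5.91e-05). Between depleted RPF and FRC the log2 difference was -0.56, with a 95% interval of -1.35 to 0.24 (edgeR adjusted p = 0.252). Without depleted replicate 1 that difference was called, at -0.998 (edgeR adjusted p = 0.0453).

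Clcf1 encodes a cytokine that signals through the LIF receptor, gp130 and the CNTF receptor (chromosome 19, 4214238 to 4223490, plus strand). It had 72.4, 44.2 and 36.9 CPM in the depleted libraries, against 6.92, 10.4 and 13.3 CPM in steady-state RPF and 7.32, 12.1 and 7.84 CPM in FRC. Here the depleted libraries stood above all others, and both steady-state groups overlapped. Clcf1 was 5.03-fold higher in depleted than in steady-state RPF (log2 fold change 2.33, SE 0.37, edgeR adjusted p = 0.00237) and 5.63-fold higher than in FRC (edgeR adjusted p = 0.000951). In GENCODE vM21 a second protein-coding gene, AC109138.7, overlaps Clcf1 on the same strand, so the Clcf1 counts may depend on how reads of the overlap were assigned.

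Il11, a cytokine linked to fibroblast activation and fibrosis (chromosome 7, 4772373 to 4782857, minus strand), was the least abundant member, with 3.65, 0.675 and 0.223 CPM in depleted RPF, 0.362, 0.967 and 1.52 CPM in steady-state RPF and 1.15, 1.33 and 2.71 CPM in FRC. All groups overlapped, on 10 to 127 reads a library. The 95% interval of the log2 difference between depleted and steady-state RPF ran from -2.01 to 3.35, so it still held a change of several-fold in either direction.

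The 4 cytokines summed to 1099, 560 and 433 CPM in depleted RPF, 41.7, 35.2 and 35.6 CPM in steady-state RPF and 1629, 1750 and 1506 CPM in FRC. The groups did not overlap in this sum, and its order was that of Il6. In bulk samples, more RNA per cell and a larger share of producing cells cannot be told apart. Within each library, the ratio of Il6 to Lif per kilobase of exon was 1.63, 1.22 and 1.61 in depleted RPF, 0.248, 0.12 and 0.413 in steady-state RPF and 5.50, 2.95 and 3.63 in FRC. Il6 thus exceeded Lif in the depleted and FRC libraries, while Lif exceeded Il6 in the 3 steady-state RPF libraries.

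Il6st encodes gp130 (chromosome 13, 112464070 to 112510086, plus strand). Its level was 789, 642 and 667 CPM in depleted RPF, 1404, 1333 and 1180 CPM in steady-state RPF and 747, 889 and 976 CPM in FRC. Steady-state RPF libraries lay above all others, and the depleted and FRC libraries overlapped. After depletion Il6st was 1.87-fold lower than in steady-state RPF (log2 fold change -0.90, SE 0.13, edgeR adjusted p = 0.00163). At steady state it was 1.5-fold higher in RPF than in FRC (log2 fold change 0.58, SE 0.13, edgeR adjusted p = 0.0119), but the call was lost among libraries with Y-linked reads only (edgeR adjusted p = 0.0978). Il6st in depleted RPF differed from FRC by -0.32 on the log2 scale (95% interval -0.62 to -0.01, edgeR adjusted p = 0.0963). This difference was called without FRC replicate 1 (-0.41, edgeR adjusted p = 0.048) and by DESeq2 (adjusted p = 0.0456), and turned to 0.10 with library totals alone.

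Lifr, the signalling chain for LIF (chromosome 15, 7090614 to 7197489, plus strand), had 102, 124 and 129 CPM in depleted RPF, 368, 269 and 305 CPM in steady-state RPF and 281, 237 and 239 CPM in FRC. Every depleted library lay below every steady-state library of either cell type. The level was 2.66-fold lower than in steady-state RPF (log2 fold change -1.41, SE 0.15, edgeR adjusted p = 0.000337) and 2.13-fold lower than in FRC (edgeR adjusted p = 0.000617). Steady-state RPF and FRC overlapped, and their log2 difference of 0.31 was not called (95% interval -0.03 to 0.66, edgeR adjusted p = 0.169), but was with upper quartile scaling (0.47, edgeR adjusted p = 0.0492) and with library totals alone (0.89, edgeR adjusted p = 0.00265).

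Osmr, the oncostatin M receptor chain, lies 215.6 kb from Lifr (chromosome 15, 6813577 to 6874969, minus strand). It had 749.5, 562 and 531 CPM in depleted RPF, 431, 413 and 327 CPM in steady-state RPF and 439.8, 417 and 351 CPM in FRC. All depleted libraries lay above the others, opposite to Lifr, and the steady-state groups overlapped. The rise was modest, 1.57-fold over steady-state RPF (log2 fold change 0.65, SE 0.17, edgeR adjusted p = 0.0243) and 1.53-fold over FRC (edgeR adjusted p = 0.021). It missed the threshold over steady-state RPF without RPF steady replicate 2 (edgeR adjusted p = 0.0591), RPF steady replicate 3 (0.0879) or depleted replicate 1 (0.077), with library totals alone (0.0828), among libraries with Y-linked reads (0.056) and against a 1.5-fold change (0.445), and over FRC without FRC replicate 3 (0.0678) or depleted replicate 1 (0.0672), and against a 1.5-fold change (0.407). Steady-state RPF and FRC differed by -0.04 on the log2 scale (95% interval -0.42 to 0.34), a direction that flipped to 0.12 with upper quartile scaling and to 0.53 with library totals alone (edgeR adjusted p = 0.0426).

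The 2 neighbouring receptor genes shifted against each other. Per kilobase of exon, the ratio of Osmr to Lifr within a library was 6.56, 4.05 and 3.65 after depletion, 1.04, 1.37 and 0.955 in steady-state RPF and 1.39, 1.57 and 1.30 in FRC. The ratio of Lif to its receptor Lifr was 13.1, 6.15 and 3.99 after depletion, 0.204, 0.206 and 0.138 in steady-state RPF and 3.51, 6.86 and 5.11 in FRC. Lif mRNA was thus scarcer than Lifr mRNA in the steady-state RPF libraries alone.

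**Figure D2:**
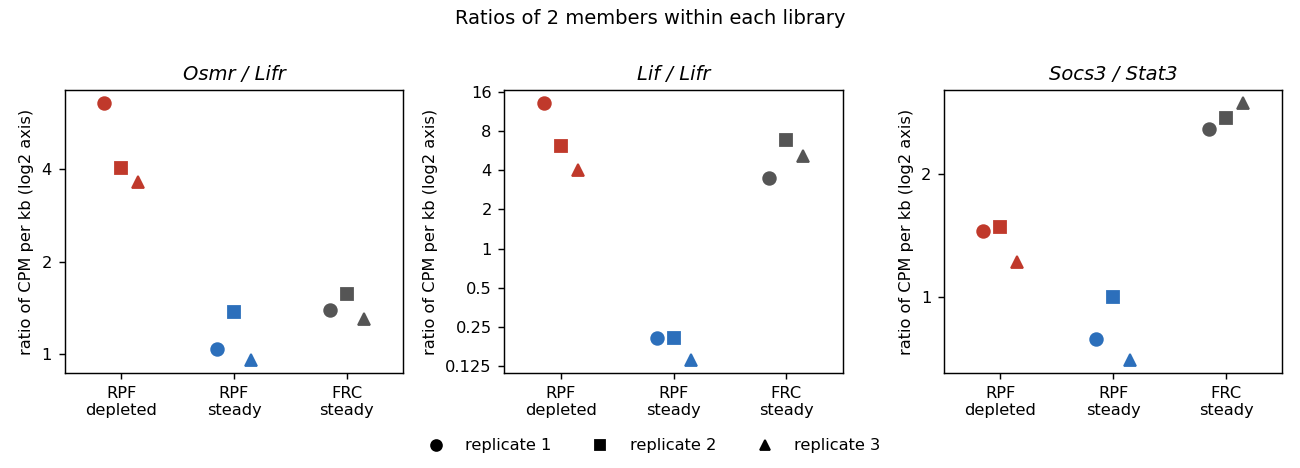
Ratios of member levels per kilobase of exon within each library (log2 y axis) for RPF depleted, RPF steady and FRC steady; each point is 1 library. Osmr over Lifr is highest in the 3 depleted libraries (3.65 to 6.56), and Socs3 over Stat3 is highest in the 3 FRC libraries (2.59 to 2.99).

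Il6ra, the IL-6 binding chain (chromosome 3, 89864059 to 89913196, minus strand), was scarce, with 6.95, 10.7 and 9.33 CPM in depleted RPF, 13.4, 9.65 and 18.5 CPM in steady-state RPF and 12.2, 2.80 and 8.14 CPM in FRC. All groups overlapped and no comparison was called (edgeR adjusted p = 0.482, 0.302 and 0.782 for depleted over steady-state RPF, steady-state RPF over FRC and depleted RPF over FRC). Il6st exceeded Il6ra per kilobase by 46.7 to 88.4 times in depleted RPF, 49.6 to 108 times in steady-state RPF and 47.8 to 247 times in FRC. The annotation places Gm42809 antisense to Il6ra, and no source names the strand setting of the counting, so reads of the pair may not be told apart.

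Socs3, the feedback inhibitor that binds gp130 and JAKs (chromosome 11, 117966079 to 117970047, minus strand), had 624, 541 and 393 CPM in depleted RPF, 203, 240.4 and 162 CPM in steady-state RPF and 1132, 1391 and 1425 CPM in FRC. The 3 groups did not overlap. It rose 2.57-fold after depletion (log2 fold change 1.36, SE 0.20, edgeR adjusted p = 0.00161), to a level 2.53-fold below that of FRC (edgeR adjusted p = 0.000956). At steady state RPF had 6.52-fold less than FRC (log2 fold change -2.71, SE 0.21, edgeR adjusted p = 2.45e-05).

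Stat3, the transcription factor itself (chromosome 11, 100885098 to 100939540, minus strand), varied less, with 1420, 1202 and 1064 CPM in depleted RPF, 846, 792 and 768 CPM in steady-state RPF and 1441, 1665 and 1568 CPM in FRC. No libraries of different groups overlapped, although depleted replicate 1 lay just under the lowest FRC library. Stat3 was 1.53-fold higher after depletion (log2 fold change 0.62, SE 0.12, edgeR adjusted p = 0.00715) and 1.94-fold lower in steady-state RPF than in FRC (log2 fold change -0.96, SE 0.12, edgeR adjusted p = 0.000477). Its difference between depleted RPF and FRC, -0.34 on the log2 scale, was not called (edgeR adjusted p = 0.0549), but was called without depleted replicate 1 (-0.45, edgeR adjusted p = 0.0203), by DESeq2 (adjusted p = 0.0156) and by limma-voom (adjusted p = 0.0234), and turned to 0.068 with library totals alone. Stat5a overlaps Stat3 on the opposite strand. Per kilobase, Socs3 over Stat3 was 1.45, 1.48 and 1.22 in depleted RPF, 0.789, 1.00 and 0.697 in steady-state RPF and 2.59, 2.75 and 2.99 in FRC. Whether this ratio is above 1 depends on the lengths used: with the deposited median transcript lengths, mean Socs3 was below mean Stat3 in depleted RPF (1060 against 1640 CPM per kilobase) and above it in FRC (2686 against 2080).

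Across the set, steady-state RPF set against FRC had 5 members called, Il6st higher and Il6, Lif, Socs3 and Stat3 lower, where 25.9% of all genes were called, 11.5% higher and 14.4% lower. The groups did not overlap for 5 members, 1 higher and 4 lower, where this held for 44.6% of all genes, 21.5% higher and 23.1% lower. The median log2 fold change was -0.46 over the members and -0.02 over all genes. Depleted RPF set against FRC also had 5 called, Clcf1 and Osmr higher and Il6, Lifr and Socs3 lower, where 35.8% of all genes were called, 16.9% higher and 18.8% lower. The groups did not overlap for 6 members, 2 higher and 4 lower, where this held for 50.3% of all genes, 24.5% higher and 25.8% lower. The medians were -0.33 and -0.06. With library totals alone, without TMM, all-gene calls split 3935 higher and 1342 lower in steady-state RPF over FRC, in place of 1734 and 2174, and 3933 and 2125 in depleted RPF over FRC, in place of 2557 and 2843. These comparisons share libraries with each other and with that of depletion. In depleted RPF, Il6, Lifr and Socs3 were thus below FRC, Lif was not distinguished from it, and Clcf1 and Osmr were above it. The Osmr call was lost without FRC replicate 3 or depleted replicate 1, and against a 1.5-fold change.

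**Figure D3:**
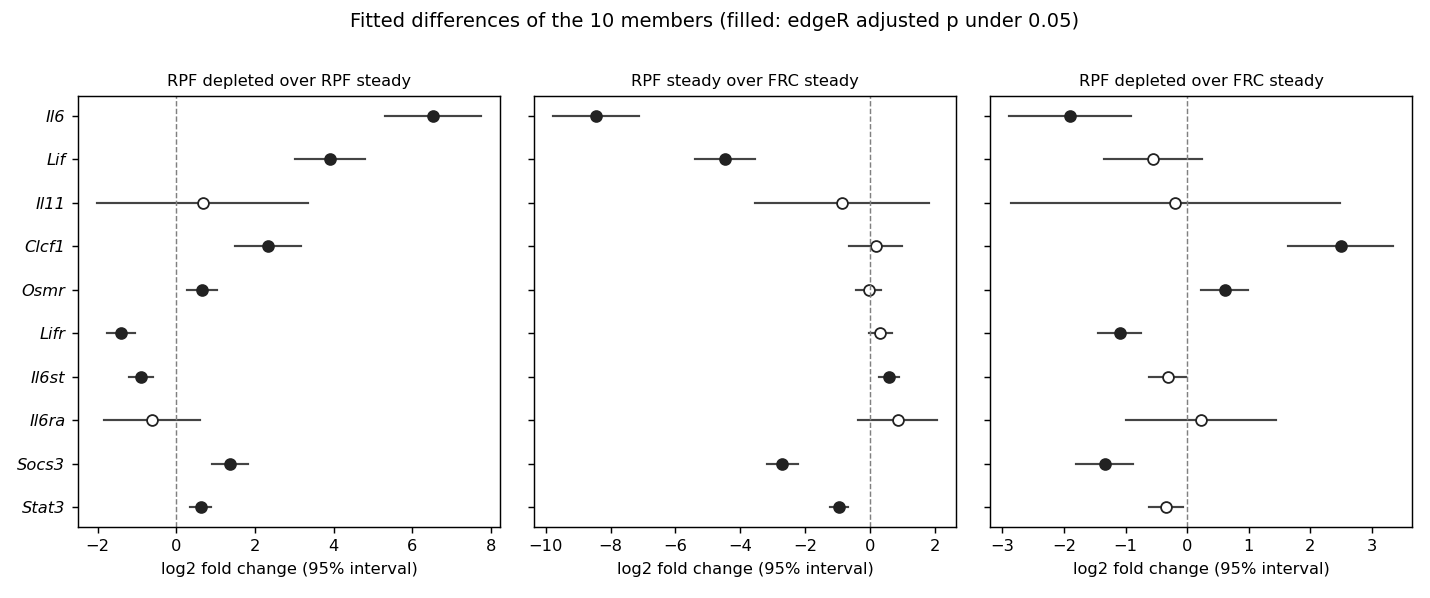
Log2 fold change of each member with its 95% interval for RPF depleted over RPF steady, RPF steady over FRC steady and RPF depleted over FRC steady; filled points passed an edgeR adjusted p under 0.05. Il6 and Lif have the largest changes, 6.53 and 3.92 after depletion, and Lifr and Il6st are the members called lower after depletion.

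Ranked per kilobase of exon, mean levels in depleted RPF ran from Socs3 (179.6 ± 40.5 CPM per kilobase) through Stat3 (129 ± 18.8), Il6 (121 ± 68.7) and Lif (80.5 ± 38.7) to Il6st (63.0 ± 7.10) and Osmr (50.7 ± 9.78). Neighbours from Socs3 to Osmr lay within each other's SD or near it, so this order is loose. In steady-state RPF the order began with Il6st (118 ± 10.3), Stat3 (84.2 ± 4.2) and Socs3 (69.8 ± 13.5), followed by Osmr (32.2 ± 4.57) and Lifr (29.1 ± 4.64), and Il6 (1.32 ± 0.61) stood above Il11 alone. FRC began with Socs3 (455 ± 55.4) and Il6 (454 ± 45.9), which did not differ beyond their spread, then Stat3 (164 ± 11.8) and Lif (119 ± 30.0). Il6ra and Il11 were among the lowest 3 in every group. With the deposited median transcript lengths, which are short for Stat3 and Socs3, Stat3 ranked first in both RPF groups, and FRC ran from Socs3 (2686 ± 327) through Stat3 (2080 ± 150) to Il6 (1047 ± 106).

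Depleted replicate 1 was the highest depleted library for every member that rose, by a margin that varied between members. It exceeded the mean of the other 2 by 2.46 times for Il6, 2.08 times for Lif and 1.79 times for Clcf1. The excess was 1.37 times for Osmr, 1.34 times for Socs3 and 1.25 times for Stat3. For Socs3, replicate 3 lay further from the others, at 0.674 times their mean. Among the members that fell, replicate 1 was lowest of the 3 for Lifr (0.804 times) but highest for Il6st (1.21 times). Without replicate 1 the edgeR log2 fold changes over steady-state RPF were 5.96 for Il6, 3.47 for Lif, 2.00 for Clcf1, 1.21 for Socs3, 0.50 for Stat3, -1.31 for Lifr and -0.996 for Il6st, all called, and of the 8 called members only Osmr was lost (0.48, edgeR adjusted p = 0.077). Among the depleted libraries, replicate 1 also had the highest shares of macrophage markers (0.00125% of counts, against 0.000253% and 0.000525%) and neutrophil markers (0.00504%, against 0.000253% and 0.00076%). Its share of monocyte markers was highest too (0.0657%, against 0.0518% and 0.0555%). It had the lowest shares of mural markers (0.273%, against 0.479% and 0.448%) and of immediate early and dissociation stress genes (1.06%, against 1.29% and 1.60%). The part of any of these in the members' levels was not tested.

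**Figure D4:**
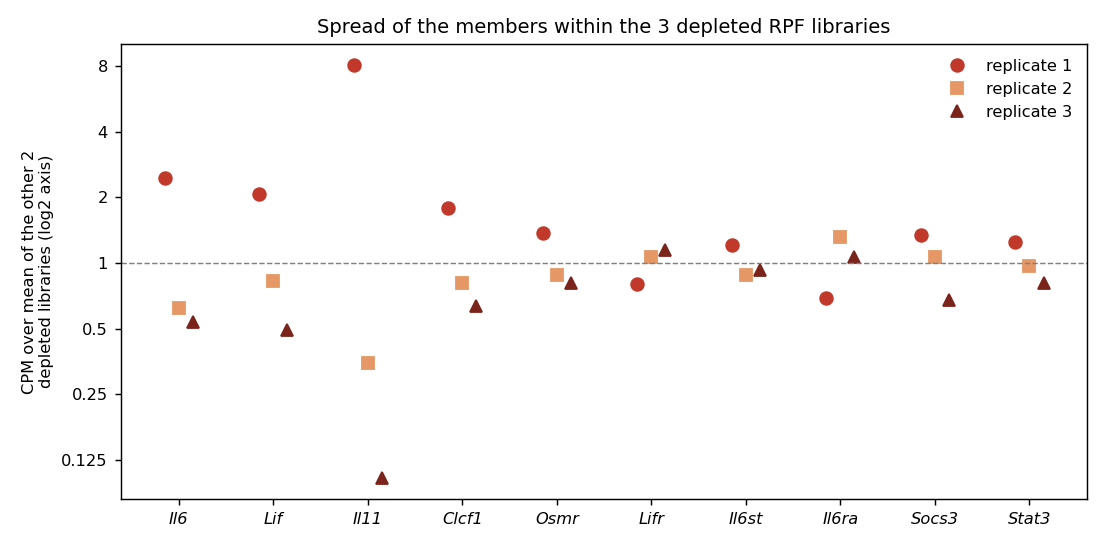
Level of each member in each RPF depleted library divided by the mean of the other 2 depleted libraries (log2 y axis); a value of 1 means no difference. Replicate 1 is above 1 for Il6 (2.46), Lif (2.08), Il11 (8.12), Clcf1 (1.79) and Il6st (1.21), and below 1 for Lifr (0.804) and Il6ra (0.694).

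The rest of the pathway was read from lists of named genes. Of 8 other ligands of the family, 7 were in the table and 3 were tested, and none was called in any comparison, where 21%, 25.9% and 35.8% of all genes were. Oncostatin M, the ligand of Osmr, had 44, 0 and 0 counts in depleted RPF, 0, 78 and 53 in steady-state RPF and 0 in each FRC library. Both RPF groups thus mixed libraries with and without Osm reads, and FRC had none. Ctf1, the cardiotrophin gene, averaged 0.111 ± 0.0986 CPM in depleted and 1.35 ± 1.19 CPM in steady-state RPF (SD, n = 3 each), which did not pass edgeR's quasi-likelihood test (adjusted p = 0.252).

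Among 5 tested other receptors and sheddases, none rose and 2 fell after depletion (median log2 fold change 0.16), where 11.1% of all genes rose and 9.96% fell. Cntfr, the CNTF receptor chain also used by the Clcf1 product, had 11.7, 21.7 and 8.57 CPM in depleted RPF, against 58.2, 48.1 and 57.8 CPM in steady-state RPF (3.91-fold lower, edgeR adjusted p = 0.00245). Its groups did not overlap, and it moved opposite to Clcf1. Adam10, a sheddase that can cleave the IL-6 receptor, averaged 55.4 ± 8.58 CPM in depleted and 98.8 ± 5.54 CPM in steady-state RPF (edgeR adjusted p = 0.00704). Il11ra1, the IL-11 binding chain, did not pass the test after depletion, with 139 ± 9.48 CPM in depleted and 124 ± 34.2 CPM in steady-state RPF (edgeR adjusted p = 0.603). Steady-state RPF set against FRC had 1 of these 5 higher, Adam10 (98.8 ± 5.54 CPM, against 44.4 ± 5.61 CPM in FRC), and 2 lower, where 11.5% and 14.4% of all genes were. Those were Il11ra1 (124 ± 34.2 CPM, against 726 ± 53.4 CPM in FRC; 5.84-fold lower, edgeR adjusted p = 1.75e-05) and Il27ra (4.29 ± 2.81 CPM, against 22.7 ± 12.5 CPM in FRC; edgeR adjusted p = 0.0134). Without FRC replicate 1 or RPF steady replicate 1 the call of Il27ra was lost (edgeR adjusted p up to 0.132). Depleted RPF against FRC had none higher and 2 lower, Il11ra1 and Cntfr, where 16.9% and 18.8% of all genes were.

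Of 11 kinases, adaptors and other STATs, 1 rose and 2 fell after depletion (median log2 fold change 0.03), where 11.1% of all genes rose and 9.96% fell, so the list was near the background. Shc1, an adaptor towards the RAS pathway, had 206, 205 and 199 CPM in depleted RPF, against 136, 126 and 141 CPM in steady-state RPF (1.52-fold, edgeR adjusted p = 0.00246). Tyk2, a JAK family kinase, averaged 5.85 ± 2.82 CPM in depleted and 31.5 ± 9.96 CPM in steady-state RPF (5.39-fold lower, edgeR adjusted p = 0.00302). Stat5b averaged 88.3 ± 2.55 CPM in depleted and 167 ± 14.7 CPM in steady-state RPF (1.89-fold lower, edgeR adjusted p = 0.00212). Jak1, the main kinase of gp130, did not pass the test, at 728 ± 65.7 CPM in depleted and 673 ± 108 CPM in steady-state RPF (edgeR adjusted p = 0.646). Steady-state RPF against FRC had 2 higher and 1 lower, Stat5b (median -0.10), where 11.5% and 14.4% of all genes were. These counts were unstable: over 21 alternatives 0 to 6 were higher and 0 to 2 lower. With library totals alone Tyk2, Ptpn11, Gab1 and Shc1 were also called higher and Stat5b was not called, none was higher among libraries with Y-linked reads, and 1 was higher without FRC replicate 2 or RPF steady replicate 1. Stat5b lost its call in 7 of the 21, among them those without FRC replicate 3, RPF steady replicate 1 or RPF steady replicate 2, and 2 genes were lower without FRC replicate 1. Depleted RPF against FRC had 4 higher and 3 lower (median -0.06), where 16.9% and 18.8% of all genes were, and 2 higher without FRC replicate 1, FRC replicate 2 or depleted replicate 2.

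Of 8 other feedback inhibitors, 3 rose and none fell after depletion (median log2 fold change -0.32), where 11.1% of all genes rose and 9.96% fell. Cish, a STAT5-induced relative of Socs3, had 31.2, 33.9 and 33.3 CPM in depleted RPF and 7.83, 10.8 and 9.76 CPM in steady-state RPF (3.46-fold, edgeR adjusted p = 9.97e-05). Steady-state RPF was 17.8-fold below FRC, which held 163, 170.2 and 172 CPM of Cish (edgeR adjusted p = 9.68e-07), the same order of groups as for Socs3. The phosphatase genes Ptpn2 (2.93-fold, edgeR adjusted p = 0.00456) and Ptpn1 (2.07-fold, edgeR adjusted p = 0.0172) were higher after depletion as well, though the call of Ptpn1 was lost without any 1 of the steady-state RPF libraries (edgeR adjusted p up to 0.0996). Socs1 did not pass that test, at 13.9 ± 2.44 CPM in depleted and 15.8 ± 3.70 CPM in steady-state RPF (edgeR adjusted p = 0.703). Against FRC, steady-state RPF had 2 higher, Socs2 and Ptpn6, and 3 lower, Cish, Socs1 and Ptpn2, where 11.5% and 14.4% of all genes were, and depleted RPF had 2 higher and 2 lower, where 16.9% and 18.8% were.

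A list of 16 genes known as STAT3 targets had 13 higher and 1 lower after depletion, where 11.1% of all genes were higher and 9.96% lower, with a median log2 fold change of 1.86 against -0.09 over all genes. Timp1, an inhibitor of metalloproteinases, had 846, 573 and 762 CPM in depleted RPF, against 17.8, 5.94 and 7.41 CPM in steady-state RPF (69.9-fold, edgeR adjusted p = 6.45e-05). Saa3, an acute phase protein, had 236, 615 and 681 reads in depleted RPF, against 3, 2 and 1 in steady-state RPF (edgeR adjusted p = 0.000107). The call of Saa3 was lost with limma-voom (adjusted p = 0.0595). Cebpb, a transcription factor of the acute phase response, had 688, 619 and 588 CPM in depleted RPF, against 153, 118.5 and 181 CPM in steady-state RPF (4.19-fold, edgeR adjusted p = 0.000152). For none of the 3 did the groups overlap, and Saa3 was lowest in depleted replicate 1, where Il6 was highest. Vegfa, the angiogenic factor, was the 1 that fell, to 181 ± 33.0 CPM in depleted RPF, against 359 ± 26.4 CPM in steady-state RPF (edgeR adjusted p = 0.0111). Many of these genes are also known targets of NF-kB and other factors, so the list does not measure STAT3 activity alone. The list was also chosen with earlier results of these data known. Its counts in every comparison are therefore descriptions, and the shares of all genes beside them make no independent test. Without depleted replicate 1 the counts were again 13 and 1.

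The same list had 0 higher and 13 lower in steady-state RPF against FRC (median log2 fold change -2.20), where 11.5% and 14.4% of all genes were, and 4 higher and 8 lower in depleted RPF against FRC (median -0.87), where 16.9% and 18.8% were. Mcl1, an anti-apoptotic gene, averaged 208 ± 12.0 CPM in steady-state RPF and 1035 ± 106 CPM in FRC (4.97-fold lower, edgeR adjusted p = 1.65e-06). Myc averaged 53.1 ± 20.0 CPM in steady-state RPF and 1723 ± 183 CPM in FRC (32.5-fold lower, edgeR adjusted p = 3.62e-06). Saa3 averaged 0.0455 ± 0.0162 CPM in steady-state RPF and 108 ± 55.2 CPM in FRC (edgeR adjusted p = 1.03e-05). FRC was thus above steady-state RPF in Stat3, in Socs3 and in most of these targets.

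Immediate early and dissociation stress genes, which tissue digestion is known to induce, moved beside these differences. They took 1.06% to 1.60% of counts in depleted RPF, 0.719% to 1.24% in steady-state RPF and 3.87% to 4.24% in FRC. Of 14 tested, 5 rose and none fell after depletion (median log2 fold change 0.60), where 11.1% of all genes rose and 9.96% fell, with Nr4a1, Ier3 and Junb at the smallest p. That count moved with 1 library: without RPF steady replicate 1 it was 10, with Fos, Jun, Egr1, Ier2 and Btg2 called as well, and over 21 alternatives it ran from 2 to 10. In steady-state RPF against FRC none was higher and 12 were lower (median -2.77), led by Zfp36, Egr1 and Junb, where 14.4% of all genes were lower, and in depleted RPF against FRC none was higher and 13 were lower, where 18.8% were. The difference in summed share between the RPF groups had an exact two-sided permutation p of 0.2, where 0.1 is the smallest that 3 against 3 libraries allow. The part of these genes in the levels of Il6, Lif and Socs3 was not tested, and Junb stands on both lists.

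**Figure D5:**
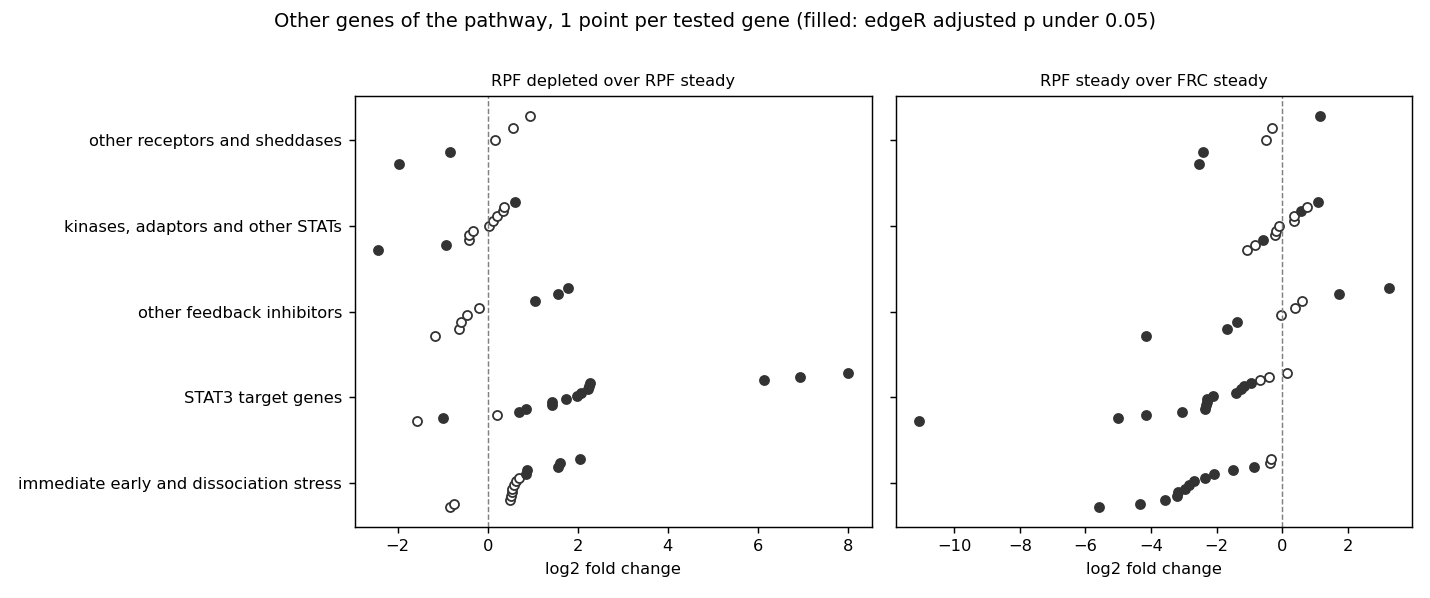
Log2 fold change (x axis) of every tested gene of 5 pathway lists (rows) for RPF depleted over RPF steady and RPF steady over FRC steady; each point is 1 gene, filled where the edgeR adjusted p was under 0.05. Of the 16 STAT3 target genes, 13 are called higher after depletion and 13 lower in steady-state RPF against FRC. The lists were chosen with earlier results of these data known, so these counts are descriptions.

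The summed shares of markers of several other cell types did not overlap between the RPF sorts, though few single markers outside the macrophage list were called. The 10 macrophage markers took 0.000253% to 0.00125% of counts in depleted RPF, with 4 of them at 0 in all 3 libraries, against 0.0207% to 0.022% in steady-state RPF and 0.0034% to 0.00444% in FRC. C1qa had 0 counts in each depleted library, against 310 to 737 in steady-state RPF. The 7 neutrophil markers took 0.000253% to 0.00504% in depleted and 0.00563% to 0.0419% in steady-state RPF, and Ptprc, the gene of CD45, had 0 to 9 counts in depleted and 6 to 530 in steady-state RPF (exact permutation p = 0.2). Mural markers took 0.273% to 0.479% in depleted and 0.0243% to 0.0443% in steady-state RPF, most of it Acta2. Of the 5 mural genes, Acta2 and Mcam were called higher, and Myh11 was not called (edgeR adjusted p = 0.455). Rgs5 and Cspg4 were near 0 in both groups and went the other way, at log2 fold changes of -0.471 and -4.03, neither called. Whether Acta2 came from mural cells or from the fibroblasts was not tested. Monocyte markers took 0.0518% to 0.0657% in depleted and 0.0332% to 0.0507% in steady-state RPF, most of it Plac8. Plac8 alone rose (534 ± 71.6 CPM in depleted and 302 ± 96.2 CPM in steady-state RPF, edgeR adjusted p = 0.0374), whereas Lyz2 fell (9.40 ± 0.912 CPM in depleted and 28.2 ± 17.6 CPM in steady-state RPF, edgeR adjusted p = 0.0373), and Ly6c2 and F13a1, at log2 fold changes of -1.84 and -2.70, did not pass the test. B cell and plasma cell markers took 0.00882% to 0.0126% in depleted and 0.0218% to 0.0443% in steady-state RPF, and endothelial markers 0.000462% to 0.00238% in depleted and 0.00481% to 0.00708% in steady-state RPF. T cell and NK cell markers were rarer still, at 1.21e-05% to 0.0002% in depleted and 0.000227% to 0.000271% in steady-state RPF. Erythroid markers, led by Hbb-bs and Hba-a1, overlapped between the RPF groups (0.0357% to 0.0582% in depleted, 0.0166% to 0.0747% in steady-state RPF, exact p = 0.9). The macrophage, neutrophil, mural (mostly through Acta2), monocyte (through Plac8), B cell and plasma cell, T cell and NK cell and endothelial differences each had an exact two-sided permutation p of 0.1, the smallest possible with 3 against 3. By gene, 7 of 9 tested macrophage markers and 2 of 6 B cell and plasma cell markers were called lower, where 9.96% of all genes were. None of the 7 tested neutrophil, 6 endothelial or 2 T cell and NK cell markers was called. Il6 and Lif rose where macrophage and neutrophil markers were lower, and Lifr, Il6st, Cntfr and Tyk2 fell together with those markers; the part of other cells in these values was not tested.

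Over the 9 libraries and 9756 genes of at least 10 CPM in some group, the genes whose log2 CPM followed Il6 most closely were Bhlhe40 (Pearson r = 0.991), Ppp1r15b (0.991), Hacd2 (0.990), Litaf (0.990) and Nfil3 (0.989). Bhlhe40 averaged 506 CPM in depleted RPF, 88.3 CPM in steady-state RPF and 907 CPM in FRC, the order of Il6 over a much smaller range. The genes most like Il6st were 1110059E24Rik (0.979), Tspan3 (0.978), Atp1b2 (0.963), C1qa (0.963) and Gpr153 (0.956). Tspan3 averaged 165 CPM in depleted RPF, 406 CPM in steady-state RPF and 243 CPM in FRC. C1qa is a macrophage gene at 0 in depleted RPF, 12.96 CPM in steady-state RPF and 2.23 CPM in FRC. The 9 points fall into 3 groups, and both genes of a correlation come from the same libraries, so these are descriptions with no test.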

How the data were processed

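Per the labels, RNA of sorted cells was sequenced in 9 libraries. HTSeq 0.6.1p1, STAR 2.5.3a, Bowtie2 2.2.8 and cutadapt 1.10 are listed in the submitters' processing notes with build mm10, and no source names the strand setting. The authors deposited raw read counts per gene, which were used as they are, and 24 further per-sample columns were not used. Of 27370 genes, 881 had no count. After filterByExpr, 15103 genes were fitted in R 4.3.3 with edgeR 4.0.16 (TMM, 1 term per group, robust quasi-likelihood, 6 residual degrees of freedom, two-sided). The fit was also run on counts simulated as independent libraries with the spread estimated from these data. That run cannot check the effect of shared mice, and its outcome is not given here. Labels number no replicates, so numbers follow accession order. Libraries, each of 2 mice, were treated as independent. Members and lists were chosen with earlier results of these data known. Named genes were all members, at most the 3 called genes of smallest p per list and comparison, the 5 genes most like Il6 and Il6st, and examples. Alternatives were other scalings, filters, tools (DESeq2 1.42.0, limma 3.58.1) and sets of libraries. Levels per kilobase used union exon lengths of GENCODE vM21, and the deposited median transcript length served as an alternative. Figures used Python 3.11.15 and matplotlib 3.10.9. Some genes of the pathway lists are not reported here by name.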

Additional observations from a re-analysis of the deposited data

How the results depend on the processing

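Of 627 values of the 30 member comparisons under other settings, 591 kept their direction and side of the threshold, 12 lost and 10 gained a call, and 14 changed sign. The count of members called ran from 6 to 8 for depleted over steady-state RPF, and from 4 to 7 for steady-state RPF and for depleted RPF over FRC. Against a 1.5-fold change, all genes called numbered 1670 in place of 3176 after depletion and 2542 in place of 3908 for steady-state RPF over FRC, and Osmr, Stat3 and Il6st lost calls. Sign changes touched only members with no call in that comparison. Osmr in steady-state RPF over FRC was 0.12 with upper quartile scaling, 0.53 with library totals, 0.028 with the compared groups alone, and between -0.13 and 0.077 with 1 library left out. Library totals gave 0.22 for Il11, 0.10 for Il6st and 0.068 for Stat3 in depleted RPF over FRC. Leaving out libraries, Il11 ran from -1.08 to 1.18 after depletion and from -1.94 to 0.32 against FRC, Clcf1 from -0.063 to 0.43 in steady-state RPF over FRC, and Il6ra from -0.17 to 0.72 in depleted RPF over FRC. The depleted minus steady-state difference in erythroid share, 0.00284%, ran from -0.0115% to 0.0175%, and that of mesothelial markers, -0.000396%, from -0.000632% to 2.53e-05%. Library totals moved the median of all genes by -0.168, 0.576 and 0.408 on the log2 scale in the 3 comparisons, and calls split 1297 higher and 1864 lower after depletion (1671 and 1505 with TMM), 3935 higher and 1342 lower in steady-state RPF over FRC (1734 and 2174 with TMM) and 3933 higher and 2125 lower in depleted RPF over FRC (2557 and 2843 with TMM). No paired analysis was possible because the labels number no replicates. FRC and steady-state RPF came from the same mice, and FRC replicate 1 and RPF steady replicate 1 alone lack Y-linked reads. The fit with a term for these reads called 8, 5 and 5 members in the 3 comparisons, the same counts as without it. That term parts only those 2 libraries from the 7 others and leaves any other sharing of mice out of the model. The unchanged counts therefore cannot show what the shared mice do to the calls. Il11 and Il6ra rest on few reads, which limits them. The cause of these changes was not tested.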
